A study of Bos taurus with 4 samples.

Results

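BTG4 and other transcripts that the oocyte stores were examined in bovine blastocysts, the embryos that follow the stage at which most maternal RNA is lost. The members were the array probes whose platform annotation carries the symbol BTG4, GDF9, BMP15, ZAR1, NLRP5, ZP2, ZP3, ZP4, DPPA3 or KHDC3L. Of these 10 genes, 9 had a probe, with 13 probes in all among 43794 embryo probes. KHDC3L was not analysed here. BTG4 was chosen by its measured 10 over 16 month ratio in the same arrays, so the age ratios of all members are given as a description without a test.

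The embryos were Bos taurus blastocysts made in vitro from slaughterhouse ovaries, fertilised with sperm of a bull aged 10 months or of a bull aged 16 months. Sperm of 4 bulls was used, and every bull gave semen at either age. RNA of either age was set against the other on 4 two-colour arrays, which are labelled as biological replicates 1 to 4 and not tied to a bull. The 10-month sample carried the red dye Cy5 on replicates 1 and 2 and the green dye Cy3 on replicates 3 and 4. The number of embryos behind a sample is not known here. P-values and fitted standard errors rest on the spread between these arrays, which may be technical. In the fit the spread of each probe is drawn towards that of all tested probes.

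An oocyte is loaded with RNA and protein that carry the embryo through its first divisions, before its own genome is transcribed. In the mouse, BTG4 brings the CCR4-NOT deadenylase to stored messages during oocyte maturation, which shortens their poly(A) tails and starts their decay. ZAR1 is an RNA-binding protein of the oocyte, and NLRP5 and KHDC3L belong to the subcortical maternal complex beneath the egg membrane. GDF9 and BMP15 are growth factors that the oocyte secretes towards its cumulus cells, and ZP2, ZP3 and ZP4 are glycoproteins of the zona pellucida around the egg. DPPA3, also called STELLA, protects maternal DNA methylation in the mouse zygote and is also known from pluripotent cells, so its RNA need not be maternal.

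Each array held 153 spots of the negative control probe (-)3xSLv1. A probe was called above background in a channel where its spot median exceeded the control's median by more than 2 scaled median absolute deviations. The scaling makes the deviation comparable to a standard deviation for normal data, and deviations below are meant so. This threshold was 1.17 to 1.26 times the control median. Between 4.58% and 11.8% of the control spots themselves passed in Cy5, and between 0.654% and 5.23% in Cy3. The median intensity of embryo probes was 94 to 151 in Cy5 and 259 to 327 in Cy3, against control medians of 61 to 103 and 194 to 235. The number of arrays limits the precision. Log2 Cy5 over Cy3 ratios correlated between arrays at r = 0.12 to 0.32 over 36325 probes, which share the slide and are not independent, so part of each ratio followed the dye. As 10 over 16 months, arrays of opposite dye orientation therefore correlated at -0.14 to -0.30.

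Most of the oocyte transcripts lay close to the negative control. Of the 13 probes, 3 were above background in all 8 channels, 7 in 5 to 7 channels, 2 in 1 to 4 channels and 1 in none. The 3 were both DPPA3 probes and the BMP15 probe. Among all embryo probes without a set-aside spot, 46.7% were above background in all 8 channels and 9.97% in none. In Cy5 the members passed in 42 of 52 probe channels, and 9 of 13 probes in all 4 channels of that dye, against 63.2% of embryo probes. In Cy3 they passed in 28 of 52, and 3 of 13 in all 4 channels, against 47.9%.

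**Figure D1:**
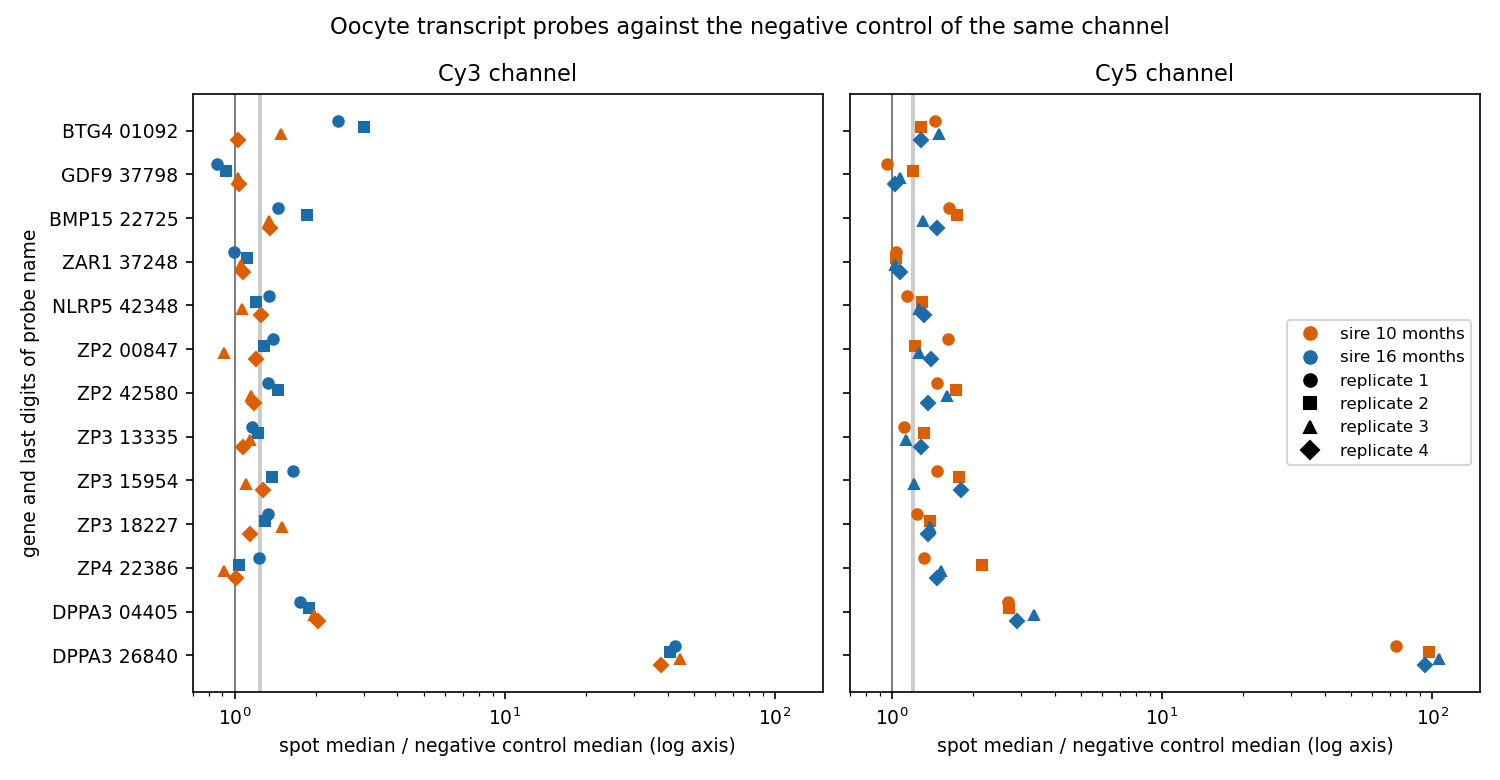
Spot median of each oocyte transcript probe divided by the negative control median of the same array and channel, on a log axis, with Cy3 at left and Cy5 at right. Colour gives sire age, symbol the replicate, the vertical line a ratio of 1 and the grey band the range of detection thresholds. The DPPA3 probe EMBV3_26840 lies between 38.0 and 106 times the control, and every other probe between 0.860 and 3.35 times.

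Only DPPA3 gave a strong signal. For probe EMBV3_26840 the Cy3 spot medians were 10056 and 8050 on replicates 1 and 2, which held the 16-month sample in that dye, and 8637 and 8541 on replicates 3 and 4, which held the 10-month sample. Its Cy5 medians were 5890 and 5928 at 10 months and 10952 and 6587 at 16 months. These values were 38.0 to 106 times the negative control, and relative to the control the ages overlapped in both dyes, with 73.6 and 97.2 times at 10 months and 106 and 94.1 times at 16 months in Cy5. The other DPPA3 probe, EMBV3_04405, was 1.74 to 3.35 times the control, with 166 to 345 in Cy5 and 371 to 458 in Cy3. Both probes were above background in all 8 channels, also with a threshold of 3 deviations.

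BMP15, the oocyte growth factor, was the other member above background throughout. Its Cy3 medians were 340 and 363 at 16 months (replicates 1 and 2) and 259 and 303 at 10 months (replicates 3 and 4). Its Cy5 medians were 130 and 106 at 10 months and 134 and 103 at 16 months. Signal was thus 1.30 to 1.84 times the control. Relative to the control, replicates 1 and 2 were the higher in both dyes. In Cy3 they held the 16-month sample (1.45 and 1.84 against 1.34 and 1.35 times). In Cy5 they held the 10-month sample (1.62 and 1.74 against 1.30 and 1.47 times). Within either dye each age lay on its own arrays, so age and array cannot be told apart there. With a threshold of 3 deviations it passed in 7 of 8 channels.

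GDF9, the partner of BMP15, lay at the control level. It passed in 1 of 8 channels, the Cy5 channel of replicate 2, and ranged from 0.860 to 1.20 times the control. ZAR1 passed in 0 of 8 channels and ranged from 0.996 to 1.11 times. The signal of both genes was at background at both ages, so no fitted age value is given for them, and RNA below this limit cannot be called absent. NLRP5 passed in 5 of 8 channels, at 1.07 to 1.34 times the control, 2 of them at 10 months and 3 at 16 months, and in 3 channels with a threshold of 3 deviations.

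The zona pellucida genes were slightly above the control and mostly in Cy5. Both ZP2 probes passed in 4 of 4 Cy5 channels and 2 of 4 Cy3 channels, at 0.912 to 1.61 and 1.14 to 1.72 times the control. Of the 3 ZP3 probes, EMBV3_18227 and EMBV3_15954 passed in 7 channels each and EMBV3_13335 in 2. When the local background was subtracted first, an alternative chosen after seeing the data, EMBV3_15954 passed in 4. With a threshold of 3 deviations it also passed in 4, EMBV3_18227 in 5, EMBV3_13335 in 1, and the ZP2 probes EMBV3_00847 and EMBV3_42580 in 4 and 6. ZP4 passed in 4 of 4 Cy5 channels and 1 of 4 Cy3 channels, at 0.912 to 2.15 times, and in 4 of 8 with that threshold. Over all members the 16-month channels passed more often, 39 of 52 against 31 of 52. By probe, 7 passed in more channels at 16 months, 1 in more at 10 months and 5 in equal numbers. The respective shares of all embryo probes were 13.4% for 16 months and 18.0% for 10 months. Nothing is read from this count, because the age ratio was used in choosing BTG4.

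The genes that work with these transcripts were read against the same control. With each gene represented by its brightest probe, 2 of 9 members (22.2%) were above background in all 8 channels, against 59.0% of 15169 genes with a symbol. The share was 28 of 36 for deadenylation and decay genes, which include the CCR4-NOT subunits that BTG4 recruits. For genes of mRNA binding in the oocyte, a list that also holds MOS, CDC25C and AURKA, it was 18 of 24. In that list YBX2, EIF4E1B, DAZL, CPEB1, PATL2 and IGF2BP2 fell short of all 8 channels. The share was 13 of 23 for other oocyte transcripts and 5 of 10 for the remaining subcortical complex and NLRP genes. The 5 were OOEP, TLE6, ZBED3, CFL1 and YWHAE. PADI6 passed in 5 channels, and none of NLRP2, NLRP8, NLRP9 and NLRP13 passed in all 8. Of blastocyst markers, 15 of 18 trophectoderm genes (83.3%) and 11 of 14 inner cell mass genes (78.6%) were above background throughout. Among them were CDX2, GATA3, POU5F1 and NANOG, while HAND1, ELF3, ATP1B1, FGF4, IL6R and CRIPTO fell short. The deadenylation and decay list had a like share (77.8%), so a high share is not particular to these markers.

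Markers of cells that could come along with the embryos were read likewise. Of 19 cumulus and granulosa genes 8 passed in all 8 channels, and AMH, AMHR2 and HSD17B1 in none. Of 15169 genes with a symbol, 8951 passed in all and 968 in none. The 8 cumulus and granulosa genes were CYP19A1, STAR, HSD3B1, INHBA, INHBB, SERPINE2, NR5A2 and PTGS2. PTGS2 is also in the trophectoderm list. The summed level of the 19 genes was 16187 to 21725 at 10 months and 13881 to 22775 at 16 months (normalised intensity, 4 channels per age). Of 23 sperm and testis genes 4 (SPATA6, ZPBP2, PGK2 and ODF2) passed in all channels, and AKAP3, GAPDHS, PRM3 and TSSK1B in none. The summed level of the 23 was 12026 to 20005 at 10 months and 9710 to 17462 at 16 months. The summed level of the 9 members was 7022 to 9890 at 10 months and 7947 to 11641 at 16 months, most of it DPPA3. The ranges of the ages overlapped for all 3 lists. The part of these cells in the values of the members was not tested, and in such bulk RNA fewer cells of a type and less RNA per cell cannot be told apart.

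**Figure D2:**
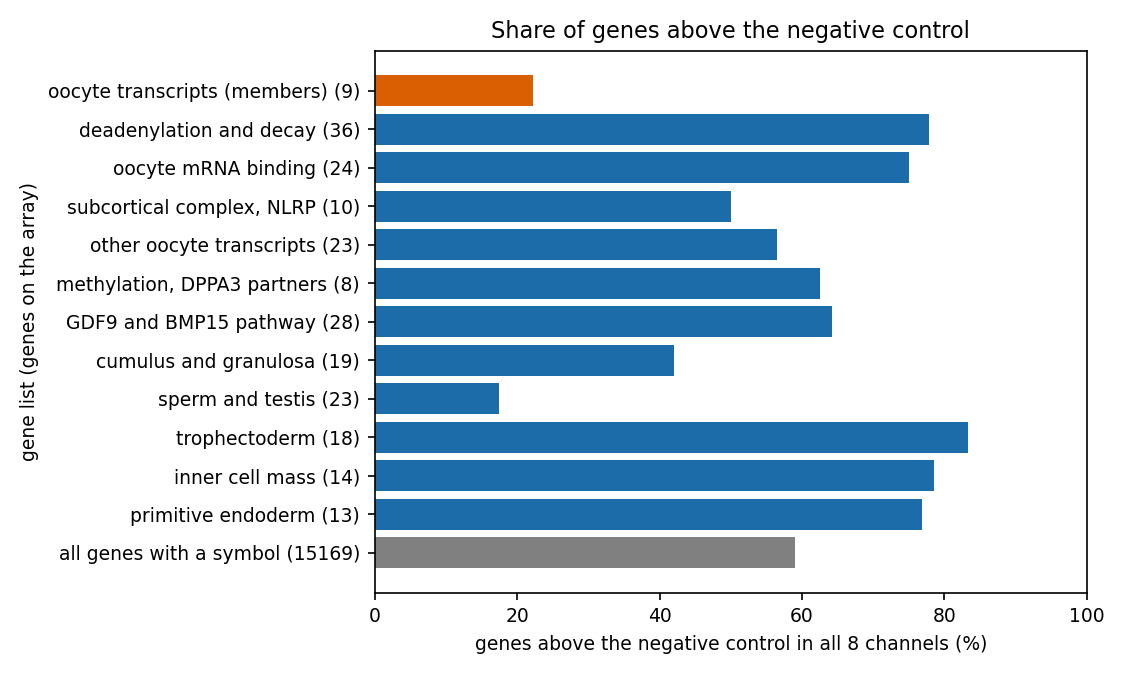
Share of genes, in percent, whose brightest probe was above the negative control in all 8 channels, for each gene list with the number of genes on the array in brackets. The oocyte transcripts are at 22.2%, the sperm and testis list at 17.4%, the trophectoderm list at 83.3% and all genes with a symbol at 59.0%.

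With limma, 0 of 36325 tested probes (0%) passed an adjusted p of 0.05 for sire age, and 1439 (3.96%) had an unadjusted p under 0.05. The members are therefore described by their ratios alone. Of the 13 probes, 11 were tested, that is, bright enough in Cy5 or Cy3 on 2 or more arrays, and the GDF9 and ZAR1 probes were not.

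BTG4 had the lowest ratio of the members. The log2 ratio of 10 over 16 months was -1.23, -1.92, 0.22 and -0.34 on replicates 1 to 4, so 3 arrays were negative and replicate 3 was positive. The fitted value, which sets a dye effect of -0.76 aside, was -0.82 ± 0.16 (SE of the fit, 4 arrays), a 1.76-fold higher value at 16 months. At 10 months BTG4 was above background on 3 of 4 arrays and at 16 months on 4 of 4, and with a threshold of 3 deviations it passed in 5 of 8 channels instead of 7.

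The intensities behind the BTG4 ratio differed between the ages in Cy3. In that dye its spot medians were 568 and 592 at 16 months (replicates 1 and 2) and 288 and 232 at 10 months (replicates 3 and 4), which is 2.42, 3.01, 1.48 and 1.03 times the control. In Cy5 they were 115 and 78 at 10 months (replicates 1 and 2) and 154 and 90 at 16 months (replicates 3 and 4), which is 1.44, 1.28, 1.50 and 1.29 times the control. The ages were apart in Cy3 and overlapped in Cy5. On the log2 scale of normalised intensity, the mean at 10 months minus that at 16 months was -1.55 in Cy3 and -0.09 in Cy5, with 2 arrays per age in either dye. Levels over both dyes were 6.97 ± 0.38 at 10 months and 7.79 ± 0.89 at 16 months (log2, SD, n = 4). The 2 high Cy3 values came from the same 2 arrays that gave the low ratios. In Cy3 the 16-month sample lay on those arrays alone, so age and array cannot be told apart within that dye. The part of the dye in the difference was not tested.

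**Figure D3:**
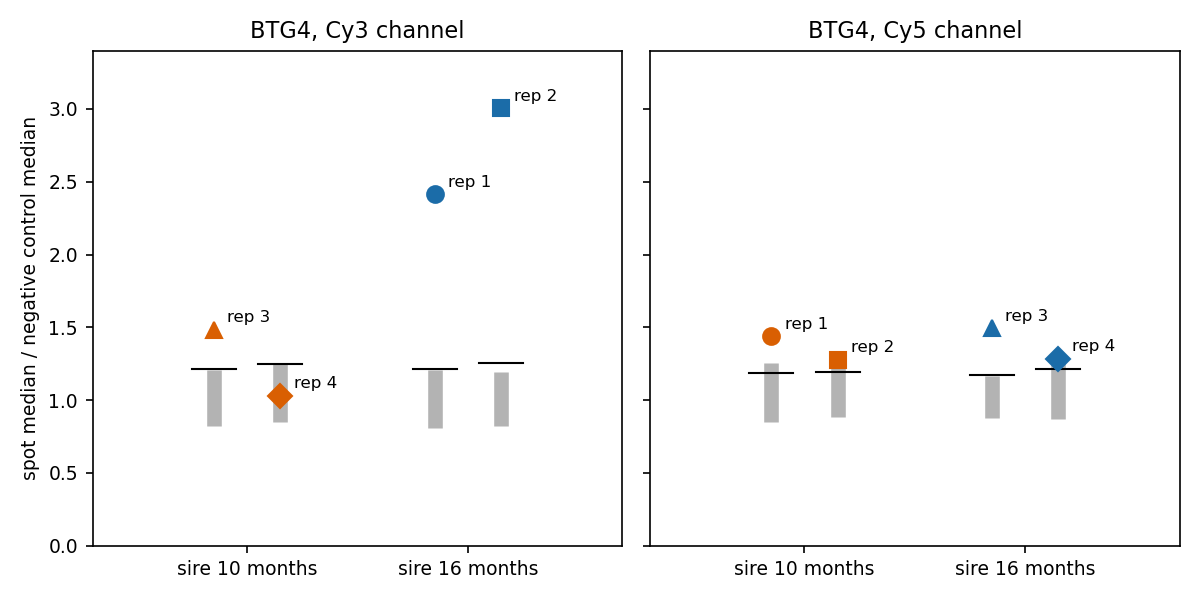
BTG4 spot median divided by the negative control median of the same channel, by sire age, for Cy3 at left and Cy5 at right. Each symbol is 1 array, the grey bar spans the 5th to 95th percentile of the control spots and the black line is the detection threshold. The 16-month samples in Cy3 stand at 2.42 and 3.01, and all other values lie between 1.03 and 1.50.

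Without replicate 2 the fitted value of BTG4 was -0.65 and without replicate 1 it was -0.99. With spot means in place of spot medians it was -0.51, over 1.5 times smaller, and the filter that asked for both channels on all arrays left the probe out.

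DPPA3, the member with the strongest signal, had ratios of -0.40, -0.13, -0.25 and 0.06 on replicates 1 to 4 for EMBV3_26840 and a fitted value of -0.18 ± 0.13. Its other probe gave 0.33, -0.08, -0.24 and 0.04, with a fitted value of 0.01 ± 0.13. Levels of EMBV3_26840 were 12.84 ± 0.22 at 10 months and 13.02 ± 0.25 at 16 months (log2, SD, n = 4). Paired within arrays, its ratios had an SD of 0.197, so the fitted value of -0.18 was smaller than the spread between arrays. The maternal complex gene NLRP5 had ratios of -0.39, 0.0050, -0.27 and 0.0050, with a fitted value of -0.16 ± 0.13. Its levels were 6.82 ± 0.15 and 6.98 ± 0.08.

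The growth factor BMP15 had ratios of 0.02, -0.55, 0.18 and -0.03 and a fitted value of -0.09 ± 0.14. Replicate 2 was thus the low array for BMP15 as for BTG4, and without it the BMP15 value was 0.05. Its levels were 7.23 ± 0.09 at 10 months and 7.32 ± 0.37 at 16 months. GDF9 and ZAR1, whose ratios compare background with background, were at -0.06, 0.34, 0.08 and 0.07, and at -0.06, -0.25, 0.10 and 0.02. Most of these lie within the 5th to 95th percentile of the control spots, which ran from -0.52 to 0.30, -0.44 to 0.18, -0.34 to 0.51 and -0.26 to 0.50 on replicates 1 to 4. The exception was GDF9 on replicate 2. Of the other members near the control, NLRP5 and the ZP3 probe EMBV3_18227 also had every array ratio within these ranges.

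Among the zona genes, ZP2 was the only member with a probe lower at 10 months on all 4 arrays, against 4.76% of tested probes. That probe, EMBV3_42580, had ratios of -0.02, -0.08, -0.51 and -0.16 and a fitted value of -0.19 ± 0.12. The other ZP2 probe gave 0.09, -0.19, -0.60 and -0.22, with -0.23 ± 0.13. Replicate 3 was the lowest for both.

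ZP4 split by dye orientation, with 0.07 and 1.08 on replicates 1 and 2 and -1.04 and -0.70 on replicates 3 and 4. Its fitted dye effect was 0.72 (log2 Cy5 over Cy3), and its fitted age value was -0.15 ± 0.18. ZP3 probe EMBV3_15954 was also higher on replicates 1 and 2, at -0.13, 0.72, -0.69 and -0.86, though only replicate 2 was positive. Its dye effect was 0.53 and its age value -0.24 ± 0.16. The brightest ZP3 probe, EMBV3_18227, was at -0.25, -0.06, 0.37 and -0.25, with a fitted value of -0.05 ± 0.14, and EMBV3_13335 had a fitted value of -0.12 ± 0.13. The ZP3 probes thus had fitted values of the same sign, each within 2 standard errors of 0, while their single arrays ran in different directions.

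Over the members, fitted values leaned one way. Of the 11 tested probes 10 were negative, and of the 7 members whose brightest probe was tested all 7 were negative, from -0.82 to -0.05 with a median of -0.16. The dim NLRP5 and ZP3 are among the 7, with every array ratio of that probe inside the range of the control spots. Among all 13495 tested genes 50.8% were negative and the median was -0.0026. By array the members' median was -0.25, -0.08, -0.25 and -0.16, against medians of 0.0016, 0.013, -0.021 and -0.0082 over all tested genes. The members were chosen with this contrast known, the 4 arrays are the same for all of them, and nothing further is read from the count.

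By Euclidean distance over the 4 log2 ratios, the genes nearest to BTG4 among 13494 others were LAMA1, MXRA7, ZDHHC5, ZAR1L and ZNF395. Their distances, the smallest by selection, were 1.06 to 1.34. Over all tested genes the median was 2.40 and the 5th percentile 1.92. ZAR1L, a paralogue of ZAR1, had ratios of -0.68, -1.02, 0.01 and 0.22 and was above background in all 8 channels. LAMA1, a basement membrane laminin chain, had ratios of -1.26, -0.90, 0.48 and -0.20. The ratios compared still hold the dye effect, which was -0.76 for BTG4 and -0.65 to -0.35 for these 5 genes. The nearest of the other members was BMP15 at 1.88, and the farthest was ZP4 at 3.52.

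The genes that work with BTG4 were described next. Of 34 tested deadenylation and decay genes 0 passed the adjusted limma test, 14 were higher and 20 lower at 10 months, and the median was -0.03. Unadjusted, 2 were lower and 0 higher at p under 0.05, against 2.06% and 2.41% of all tested genes. The CCR4-NOT subunit CNOT3 was at -0.43 ± 0.13, with -0.0077, -0.04, -0.62 and -1.05 on replicates 1 to 4, and CNOT10 at -0.43 ± 0.17, with -1.17 on replicate 3. PABPC1L, a poly(A)-binding protein of oocytes, was at -0.25 ± 0.14. The adaptors related to BTG4 were at 0.04 ± 0.13 for BTG1, 0.07 ± 0.21 for BTG2, 0.18 ± 0.22 for BTG3 and 0.20 ± 0.14 for TOB1, and TOB2 was above background in 0 channels. The deadenylase subunits CNOT6L, CNOT7 and CNOT8 were at 0.05 ± 0.17, 0.0063 ± 0.14 and 0.05 ± 0.12, with means over 3 probes of -0.0088 for CNOT6L and -0.11 for CNOT7.

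Lists of oocyte biology had medians between -0.06 and 0.03, and 0 members of any passed the adjusted limma test. Of 24 genes of mRNA binding in the oocyte 16 were negative (median -0.05), with 1 lower and 0 higher at an unadjusted p under 0.05. The shares of all tested genes at that threshold were 2.06% lower and 2.41% higher. The translational repressor PUM2 was at 0.50 ± 0.25, with 1.46 on replicate 3 (mean over its 2 probes 0.27), ZAR1L at -0.37 ± 0.12 and the polyadenylation factor CPSF2 at -0.27 ± 0.13 (mean over its 4 probes -0.08). Of 9 other subcortical complex and NLRP genes 5 were positive (median 0.02), with 0 in either direction at that unadjusted threshold, and NLRP13 was at 0.26 ± 0.14, OOEP at 0.25 ± 0.17 and ZBED3 at -0.16 ± 0.13. Of 23 other oocyte transcripts 12 were positive (median 0.0046), with 1 higher and 1 lower at that threshold. The signalling regulator RGS2 was at -0.44 ± 0.29, from -1.50 to 0.89 between arrays (mean over its 2 probes -0.42), the meiotic regulator FBXO43 at 0.40 ± 0.15 and the transcription factor SOHLH2 at -0.35 ± 0.15.

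The partners of the other members were as scattered. Of 7 genes around DPPA3 in DNA methylation 6 were negative (median -0.06), with 0 at an unadjusted p under 0.05. Over all tested genes that threshold held 2.06% lower and 2.41% higher. TET3 was at 0.45 ± 0.20 with 1.52 on replicate 3, TRIM28 at -0.14 ± 0.13 and DPPA2 at -0.11 ± 0.13. Of 26 genes of GDF9 and BMP15 signalling 16 were positive (median 0.03), with 1 lower and 0 higher at that threshold. The BMP target ID3 was at -0.91 ± 0.26 with -2.17 on replicate 2 (mean over its 5 probes -0.22), the relay protein SMAD3 at 0.34 ± 0.17 with 1.26 on replicate 3, and the receptor BMPR1B at 0.33 ± 0.16 (mean over its 3 probes 0.04). None of these passed the adjusted test.

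Markers of other cells and of the embryo itself gave medians of 0.02 over 15 cumulus genes, 0.09 over 17 sperm genes, -0.11 over 18 trophectoderm genes, 0.08 over 14 inner cell mass genes and -0.05 over 13 primitive endoderm genes. At an unadjusted p under 0.05 there were 5 of these genes, 2 higher (SPATA6 and STAT3) and 3 lower (HAND1, LAMA1 and COL4A1), and 0 with the adjusted limma test. Of all tested genes, 2.41% were higher and 2.06% lower at that unadjusted threshold. HAND1 was above background in 2 channels at either age. The cumulus genes of widest fitted ratio were CYP11A1 at -0.27 ± 0.22, NR5A2 at 0.24 ± 0.19 (mean over its 3 probes 0.20) and INHBA at 0.18 ± 0.15. The sperm genes were SPATA6 at 0.58 ± 0.18 (mean over its 2 probes 0.31), TNP1 at 0.30 ± 0.24 and PRM1 at 0.25 ± 0.17. In the trophectoderm list they were ASCL2 at 0.31 ± 0.15, HAND1 at -0.28 ± 0.12 and KRT19 at -0.24 ± 0.32. In the inner cell mass list they were NANOG at 0.30 ± 0.14, STAT3 at 0.29 ± 0.12 (mean over its 3 probes 0.0088) and ESRRB at 0.26 ± 0.19. In the primitive endoderm list they were LAMA1 at -0.47 ± 0.15, PDGFRA at 0.39 ± 0.25 (mean over its 3 probes 0.03) and COL4A1 at -0.35 ± 0.14. Single arrays lay far apart for some of these genes. CYP11A1 ran from -1.58 to 1.21, TNP1 from -0.69 to 1.42 and KRT19 from -1.37 to 0.88. On replicate 3 NR5A2 had 1.32, ESRRB 1.23 and PDGFRA 1.37, and on replicate 1 SPATA6 had 1.28.

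**Figure D4:**
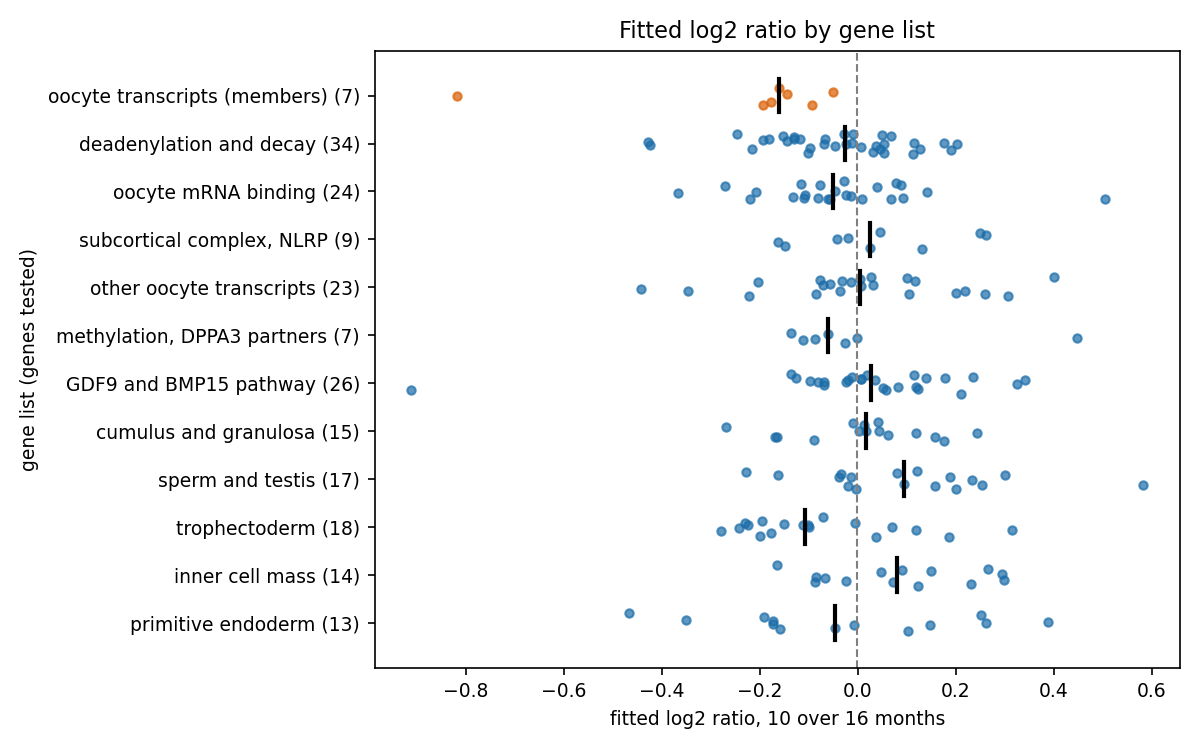
Fitted log2 ratio of 10 over 16 months for the brightest tested probe of each gene, by gene list, with the number of tested genes in brackets, list medians as black bars and the median of all tested genes as a dashed line. The oocyte transcripts lie between -0.82 (BTG4) and -0.05, and the lowest point of all is ID3 at -0.91 in the GDF9 and BMP15 list.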

How the data were processed

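The deposited scans hold, per the file headers, linear spot intensity and local background at 635 nm (Cy5) and 532 nm (Cy3) for 45220 spots per array, without normalisation. The authors' deposited value table holds log2 ratios of the same arrays, for which the submitters' processing notes name limma, with version, background correction and filters not given in the sources used here. It ran Cy5 over Cy3, since its columns correlated with the ratios computed here at 0.978 to 0.991, with medians of -0.02, -0.01, -0.01 and -0.01 and the centring unknown.

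Here limma 3.58.1 (R 4.3.3) took spot medians through normexp (offset 50) and loess within arrays with control spots at weight 0. Probes with a set-aside spot (175) and dim probes (7294) were left out, which left 36325. The fit had dye and age terms, 2 residual degrees of freedom and 5.72 from the prior, with Benjamini-Hochberg adjustment over all tested probes, and was tested on simulated data. Levels used Aquantile scaling between arrays. All arrays lay on 1 slide.

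Symbols came from the platform annotation, which gives 1 symbol to 21790 probes and several to 0, and leaves 22004 unnamed here, updated through RefSeq (ARS-UCD2.0) for names only. A gene's main probe is its brightest. Besides all member probes, text names per list the 3 genes of widest fitted ratio and the 5 nearest to BTG4, and others to complete small counts or as known partners of BTG4 or markers, chosen after their values were seen. The members and the 11 other lists were chosen with earlier results of these data known.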

Additional observations from a re-analysis of the deposited data

Results flagged for a closer look

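Of 39 groups of 4 values (the age ratio and the level at either age of 13 probes), 2 had a value far from the other 3 by Dixon's test, a share that chance gives in about 1 of 20 groups. GDF9 had a log2 level of 6.22 at 10 months on replicate 1, against 6.62 to 6.69 on the others, all near background. NLRP5 had a log2 level of 7.11 at 16 months on replicate 1, against 6.93 to 6.96.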

How the results depend on the processing

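Without 1 array the count of probes called for sire age by limma ran from 0 to 1788: it was 0 without replicate 1 or 2, 6 without replicate 3 and 1788 without replicate 4, fits in which the lone array of an orientation is assumed to vary like the others. In the 10 other settings it stayed at 0, with 704 to 1764 probes at an unadjusted p under 0.05. The members' median log2 ratio of -0.16 ran from -0.25 (without replicate 2) to -0.11 (without replicate 3) when 1 array was left out, and from -0.16 to -0.09 in the other settings, where the stricter filter kept 2 of the members. The share of member probe channels above the control was 67.3%, and 52.9% with a threshold of 3 deviations; without 1 array it was 64.1% to 70.5%. Over the brightest probes, 6 of 119 alternative ratios changed sign, 3 for ZP3 (up to 0.10 without replicate 4) and 1 each for BMP15, ZAR1 and ZP4, and BTG4 ran from -0.99 to -0.51; the cause was not tested. The fit is on the ratio of both ages within each array, so it is itself paired by array and has no unpaired or further blocked counterpart here. Signals under 1.17 to 1.26 times the control could not be told from background.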
